A study of Mus musculus with 4 samples.

Results

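The muscle miRNAs of the mouse were examined in liver from *Clock* mutant and WT animals at 2 times of day. They are the 7 mature miRNAs whose names on the array are mmu-miR-1, mmu-miR-133a, mmu-miR-133b, mmu-miR-206, mmu-miR-208a, mmu-miR-208b and mmu-miR-499, written below without the species prefix. They were chosen by name, with star (passenger) strands left out, and make up 7 of the 611 mouse miRNAs on the array. Liver was taken from male mice of 6 to 8 weeks, kept for 2 weeks under 12 h of light and 12 h of dark, at ZT2 or ZT14, which are 2 h and 14 h after lights on. The mutants carried the Clock△19 allele of the clock gene *Clock*, and the controls were wild type. RNA of 3 mice per genotype and time point was mixed and hybridized to 1 array, which gave 4 arrays, named below by genotype and time point. A pool of 3 mice gives 1 measurement, so the spread between animals is unknown, no ratio of 2 arrays can be tested, and the number of arrays limits the precision.

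MicroRNAs are short RNAs that pair with mRNAs through their seed, the bases near the 5′ end, and lower the output of those mRNAs. The miRNAs studied here are made mainly in striated muscle. miR-1 and miR-133a come from shared primary transcripts of heart and skeletal muscle, miR-206 and miR-133b share a primary transcript of skeletal muscle, and miR-208a, miR-208b and miR-499 lie in introns of myosin heavy chain genes. The liver parenchyma holds no striated muscle, and hepatocytes are not known as a main source of these miRNAs.

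The mature sequences are shown because the seed largely sets which mRNAs a miRNA can pair with, and because some of these miRNAs are close relatives. RefSeq entries of GRCm38.p6 matched 5 of the 7 names, and capitals mark the seed (bases 2 to 8 from the 5′ end). The array names give no arm, so the arm known as the main product was taken. miR-1 and miR-133a are named only.
miR-133b-3p: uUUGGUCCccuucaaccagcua
miR-206-3p: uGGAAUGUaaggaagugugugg
miR-208a-3p: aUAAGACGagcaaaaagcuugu
miR-208b-3p: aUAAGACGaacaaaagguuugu
miR-499-5p: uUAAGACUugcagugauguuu
In the RefSeq annotation these lie at chr1:20682834-20682855 (miR-133b-3p, plus strand), chr1:20679055-20679076 (miR-206-3p, plus strand), chr14:54949072-54949093 (miR-208a-3p, minus strand), chr14:54975710-54975731 (miR-208b-3p, minus strand) and chr2:155622893-155622913 (miR-499-5p, plus strand). miR-208a-3p and miR-208b-3p had the same seed and were identical at 19 of 22 positions. Counted from the 5′ end of miR-208a-3p, the differences were G10A, A16G and C18U. The seed of miR-499-5p shared 6 of 7 bases with theirs. The hairpins of miR-206 and miR-133b were 3686 bases apart, both inside the noncoding gene *Lincmd1*, and those of miR-208a and miR-208b were 26557 bases apart, inside *Myh6* and *Myh7*. The hairpin of miR-499 was inside *Myh7b*.

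The hepatocyte miRNAs checked against the tissue label, miR-122 among them, were detected on every array (4 of 4). The scanner software called 31.6% of the 611 miRNAs detected on WT ZT2, 26.4% on *Clock* mutant ZT2, 22.6% on WT ZT14 and 23.2% on *Clock* mutant ZT14. WT ZT2 therefore stood apart in detection, and 29 miRNAs (4.75%) were detected on it and on no other array, against 1 on *Clock* mutant ZT2 (0.164%), 1 on WT ZT14 (0.164%) and 0 on *Clock* mutant ZT14. All arrays lay on 1 slide and were scanned together. Negative control spots, which match no mouse miRNA, averaged 5.48, 5.24, 8.32 and 9.72 units, with an SD over spots of 3.69, 3.86, 4.33 and 4.96. The level on WT ZT2 was near that on *Clock* mutant ZT2 and below both ZT14 arrays, and no spot was saturated. The 75th percentile of signal used for scaling was 340 units on WT ZT14 and up to 537 on the other arrays.

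Of the muscle miRNAs, miR-1, miR-133a and miR-133b were detected on WT ZT2 (3 of 7), and 0 of 7 were detected on each of the other 3 arrays. miR-206, miR-208a, miR-208b and miR-499 were detected on no array. The share of members detected on WT ZT2, 3 of 7, stands beside 31.6% of all miRNAs there, and the 3 of 7 detected there and nowhere else stand beside 4.75%. When a miRNA was instead taken as detected with at least 50% of its spots well above background, the members numbered 3, 0, 0 and 0 of 7, beside 22.4%, 19.3%, 18.3% and 17.5% of all miRNAs. On WT ZT2, miR-1 met this rule with 17 of 20 spots, but miR-133a and miR-133b were at its edge with 10 of 20 each. Over spots without an outlier flag miR-133a had 9 of 19 and missed it, which left 2 of 7 members. Each miRNA had 2 probes and each probe 10 spots, so 20 spots per array carry the evidence for 1 miRNA. Spots of 1 array share 1 RNA pool, so their spread is the error of the array and not of the animals.

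miR-1, which represses growth and alternative fates in muscle cells, averaged 105.8 units on WT ZT2, 4.46 on *Clock* mutant ZT2, 0.592 on WT ZT14 and 2.44 on *Clock* mutant ZT14. The 10 spots of its brighter probe ran from 172.6 to 197.8 units on WT ZT2, with a coefficient of variation of 4.33%. The same probe ran from 7.28 to 16.0 units on *Clock* mutant ZT2, from -1.73 to 3.77 on WT ZT14 and from -9.79 to 12.3 on *Clock* mutant ZT14. Every WT ZT2 spot of this probe was thus far above every spot of the other arrays. The dimmer probe separated the arrays as well, with 19.5 to 32.9 units on WT ZT2 against a highest spot of 6.42 units over the 30 spots of the other 3 arrays. On WT ZT2 the software called both probes detected.

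On *Clock* mutant ZT2 the brighter probe of miR-1 was not at 0. All 10 of its spots were positive and significant against the local background there, as against 0 of 10 on WT ZT14 and 6 of 10 on *Clock* mutant ZT14. None was well above background, all 10 lay within the range of the negative control spots, and 2 were above their mean plus 2 SD. The mean of 11.2 units was at the 98.2 percentile of the probes of undetected miRNAs on that array. The dimmer probe averaged -2.23 units there, with 0 of 10 spots significant. The probes of miR-1 therefore differed near the limit of detection, and miR-1 was not called detected.

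miR-133a, which restrains smooth muscle genes and proliferation in muscle cells, averaged 21.6 units on WT ZT2, 0.519 on *Clock* mutant ZT2, 0.896 on WT ZT14 and -0.734 on *Clock* mutant ZT14. Its brighter probe had 9 spots without an outlier flag on WT ZT2, from 32.2 to 43.4 units. The highest of 30 spots on the other arrays was 5.06 units, so the groups of spots did not overlap. The dimmer probe averaged 5.12 units on WT ZT2, which was below the negative control mean of 5.48, and 4 of its 10 spots were above every spot of the other arrays. The call of miR-133a on WT ZT2 rested on 1 of its 2 probes.

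miR-133b, a close relative of miR-133a, averaged 37.6 units on WT ZT2, 0.586 on *Clock* mutant ZT2, -2.38 on WT ZT14 and -0.233 on *Clock* mutant ZT14. Its brighter probe gave 48.6 to 72.3 units on WT ZT2. The highest spot elsewhere, 20.2 units, was a single spot on *Clock* mutant ZT2, where the median of that probe was 0.941. The dimmer probe gave 4.52 to 14.5 units on WT ZT2, and 9 of its 10 spots were above every spot of the other arrays, though none was well above background. As with miR-133a, 1 of 2 probes was called detected. The mature miR-133a and miR-133b are nearly the same in sequence, and how far the probes of one take up the other was not tested.

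**Figure D1:**
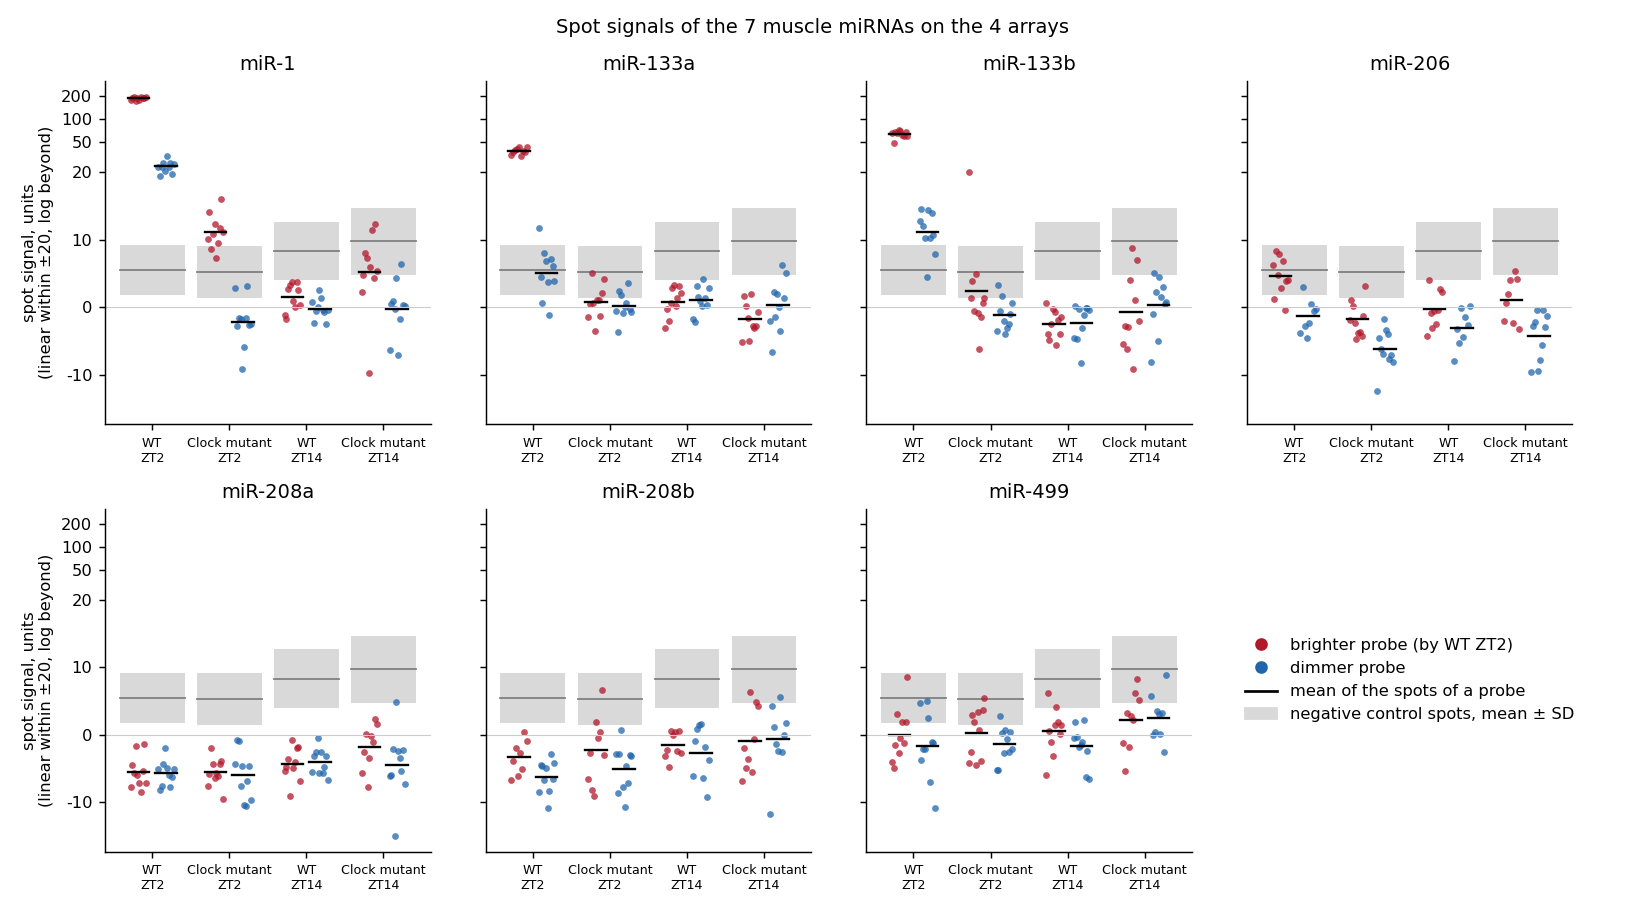
Signal of each spot without an outlier flag (vertical axis, units, linear within 20 units of 0 and logarithmic beyond) for each muscle miRNA on the 4 arrays (horizontal axis); red points are the brighter and blue points the dimmer probe, black lines probe means, and grey bands the mean ± SD of the negative control spots. miR-1 (172.6 to 197.8 units), miR-133a (32.2 to 43.4) and miR-133b (48.6 to 72.3) stand clear of the band by their brighter probe on WT ZT2, and the other miRNAs lie in or below it on every array.

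miR-206, which is made in skeletal muscle and promotes its differentiation, averaged 1.58 units on WT ZT2, -4.00 on *Clock* mutant ZT2, -1.74 on WT ZT14 and -1.62 on *Clock* mutant ZT14. The spots of its brighter probe on WT ZT2 ran from -0.485 to 8.32 units, 5 of 10 were positive and significant, and 4 were above the highest of 27 spots elsewhere. All 10 lay within the range of the negative controls, so the arrays overlapped. miR-206 and miR-133b share a primary transcript, and on WT ZT2 the latter was called detected and the former not. Levels of different miRNAs cannot be set against each other on an array, because probes differ in how they bind and miRNAs in how brightly they are labelled.

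The myosin-gene miRNAs were at or under the negative controls on all arrays. miR-208a, the product of the alpha (fast, adult heart) myosin gene *Myh6*, ranged over the arrays from -5.81 to -3.17 units. miR-208b, the product of the beta (slow) myosin gene *Myh7*, ranged from -4.79 to -0.740 units. miR-499, the product of *Myh7b*, ranged from -0.782 to 2.33 units, and its highest value was on *Clock* mutant ZT14. None of the spots of miR-208a or miR-208b on WT ZT2 was above every spot of the other arrays, and 1 spot of miR-499 was. The star strand miR-133a*, the only passenger strand of these miRNAs on the array, was undetected on all 4 arrays, with -5.92 to -3.16 units.

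A probe whose every spot on WT ZT2 lay above every spot of the other 3 arrays was found for 3 of the 7 members: both probes of miR-1, 1 of miR-133a and 1 of miR-133b. Over all 611 miRNAs this was seen for 58, which is 9.49%. The same count for *Clock* mutant ZT2, WT ZT14 and *Clock* mutant ZT14 was 0 of 7 members beside 0.818%, 0 and 0.655% of all miRNAs. The signals used for this were not scaled. The spots of these probes were scattered over the array and not in 1 patch: those of the brighter probe of miR-1 lay between rows 44 and 175 of the grid. Its 3 spots in the upper part of the array averaged 188.5 units and its 7 in the lower part 187.2 units.

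The mutant was compared with WT at ZT2 by the ratio of scaled signals. miR-1, miR-133a and miR-133b were lower in the mutant, and since none was detected there the ratio has only a bound. Set against the lowest signal of any detected miRNA on the mutant array, or the miRNA's own signal where that was higher, miR-1 was 22.2-fold, miR-133b 14.6-fold and miR-133a 8.40-fold lower. By this reading 3 of 7 members were at least 2-fold lower and 0 higher, beside 8.25% and 0 of all miRNAs detected on either array. The 3 members could be compared only through their detection on WT ZT2, so a lower value in the mutant was fixed by that detection and the count is no separate result. The lowest detected signal, 2.42 units, was itself below the mean of the negative controls on that array.

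The size of the difference therefore depended on the floor. With the negative control mean as the floor, miR-1 was 18.9-fold, miR-133b 6.73-fold and miR-133a 3.87-fold lower in the mutant at ZT2. With the mean plus 2 SD, 13.0 units, miR-1 was 7.66-fold, miR-133b 2.72-fold and miR-133a 1.57-fold lower. The strictest floor was the lowest signal among miRNAs with at least 50% of their spots well above background, 21.7 units on the mutant array. Against it miR-1 was at least 4.66-fold lower and miR-133b at least 1.66-fold lower, and miR-133a had no fold. With this floor 1 of 7 members was at least 2-fold lower, beside 1.45% (2 of 138) of the miRNAs that could be compared. miR-1 was 1 of those 2. miR-1 was thus more than 2-fold lower under each of these 4 floors, miR-133b under 3 of them and miR-133a under 2.

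The change from ZT2 to ZT14 in WT uses the same WT ZT2 array, so it is not independent of the comparison above. The same 3 members were lower at ZT14, with miR-1 at 22.2-fold, miR-133b at 7.90-fold and miR-133a at 4.55-fold against the lowest detected signal. These 3 of 7 stand beside 6.7% of miRNAs that were at least 2-fold lower, and 0 of 7 beside 1.03% that were higher. The 3 could be compared only through their detection on WT ZT2. A lower value at ZT14 was fixed by that detection, so the count is no separate result. With the negative control mean as the floor, 8.32 units on WT ZT14, miR-1 was 8.05-fold, miR-133b 2.86-fold and miR-133a 1.65-fold lower. The mean plus 2 SD, 17.0 units, was the highest floor on that array. Against it miR-1 was 3.95-fold and miR-133b 1.40-fold lower, and miR-133a had no fold. Against the lowest signal among miRNAs with at least 50% of their spots well above background, 14.4 units, miR-1 was at least 4.20-fold lower. There miR-133b was at least 1.49-fold lower and miR-133a had no fold. With that floor 1 of 7 members, miR-1, was at least 2-fold lower, beside 0.73% of all miRNAs compared. This 0.73% was miR-1 alone, so it gives no separate share to set the member against.

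The other comparisons gave no ratio for any member. Between mutant and WT at ZT14, and between ZT14 and ZT2 in the mutant, all 7 members were undetected on both arrays. At least 2-fold lower were 13.4% of 157 miRNAs in the former and 13.5% of 163 in the latter. For the muscle miRNAs a difference between genotypes at ZT14, or between times in the mutant, was not detectable at this signal over background. Whether the genotype difference depends on the time of day was not tested for them.

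**Figure D2:**
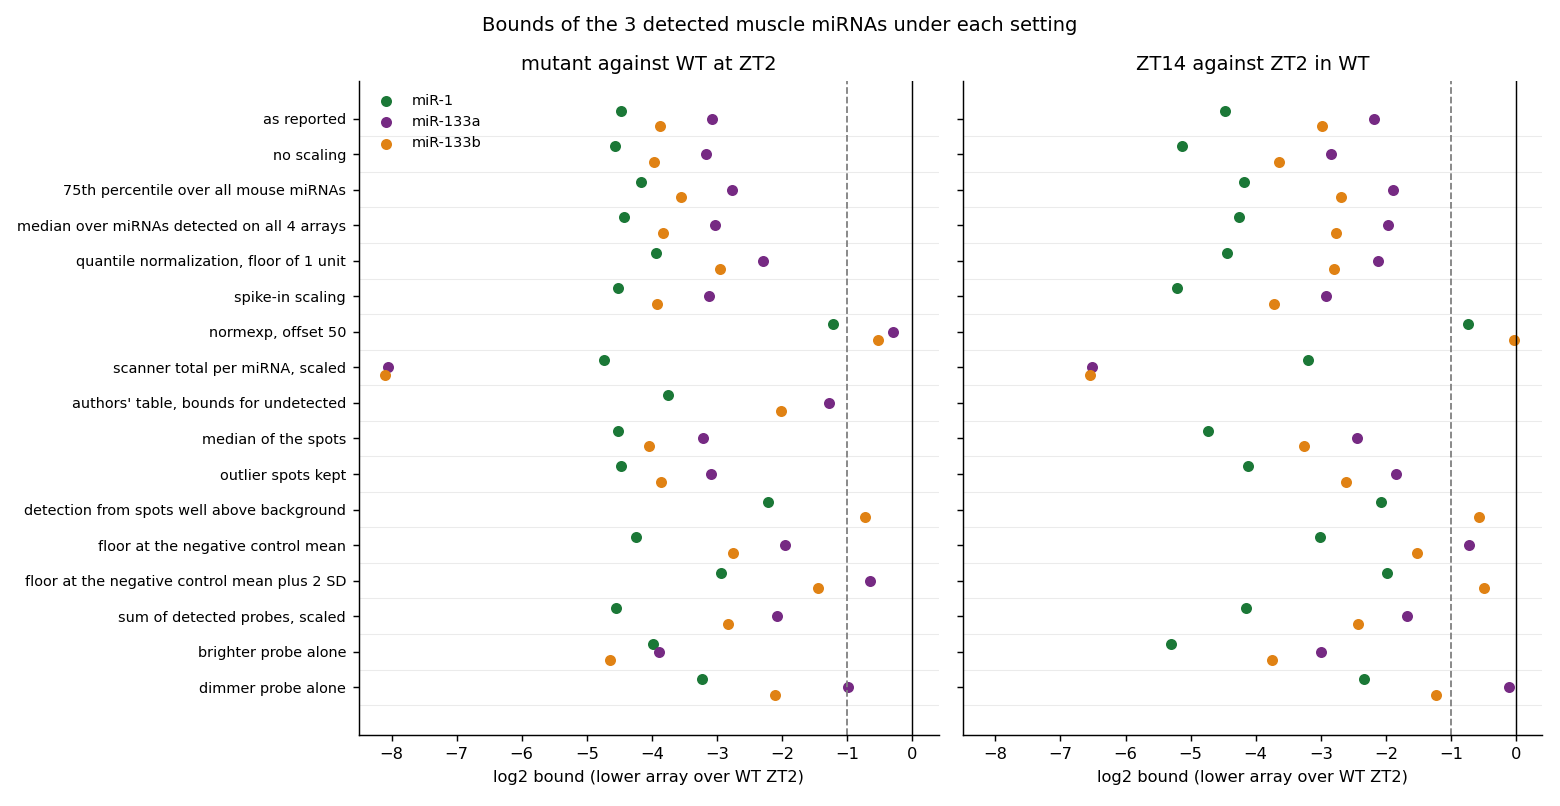
Log2 bound (points) of the 3 detected members for the mutant against WT at ZT2 and for ZT14 against ZT2 in WT (horizontal axis) under each way of processing (vertical axis); the dashed line marks 2-fold, and a missing point means no bound. As reported the bounds at ZT2 were -4.48 (miR-1), -3.07 (miR-133a) and -3.87 (miR-133b), and they moved towards 0 with higher floors and with the normexp correction. With the scanner total they moved away from 0, to -4.74, -8.06 and -8.10. With the brighter probe alone miR-133a and miR-133b did so too, to -3.89 and -4.64, while miR-1 moved towards 0, to -3.98.

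Over both time points, genotype was tested with limma on the miRNAs detected on all 4 arrays. None of the 7 members was among those 123. The test called 0 of 123 miRNAs for genotype and 0 for time point at an adjusted p of 0.05, with 10 and 12 at an unadjusted p under 0.05 and smallest adjusted p of 0.220 and 0.195. When the 195 miRNAs detected on at least 1 array were fitted, with the negative control mean as floor, 0 were called for either, with 29 and 30 at an unadjusted p under 0.05. miR-1, miR-133a and miR-133b entered that fit through WT ZT2 alone and were at the floor on the other arrays, so their values in it are not given. The design left 1 residual degree of freedom.

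Of the 29 miRNAs detected on WT ZT2 and nowhere else, 3 were members and 26 were not. Their signals on WT ZT2 were set against the highest of the other arrays after scaling, no array being taken below its negative control mean. miR-1 was 8.05-fold, miR-133b 2.86-fold and miR-133a 1.65-fold above that level. These are the folds of ZT14 against ZT2 in WT with the same floor, so they are no separate result. Of the 26 others, 1 was at least 2-fold above it, miR-142-5p of blood-forming cells at 2.32-fold, and their median was 0.809-fold. A fold below 1 can come from the floor. miR-141 was at 0.686-fold, with 9.01 units on WT ZT2 and at most 0.897 units on another array. On WT ZT2, 10 of the 26 exceeded the negative control mean plus 2 SD, 12.9 units, as did all 3 members. A probe with every spot above those of the other arrays was found for 6 of the 26.

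**Figure D3:**
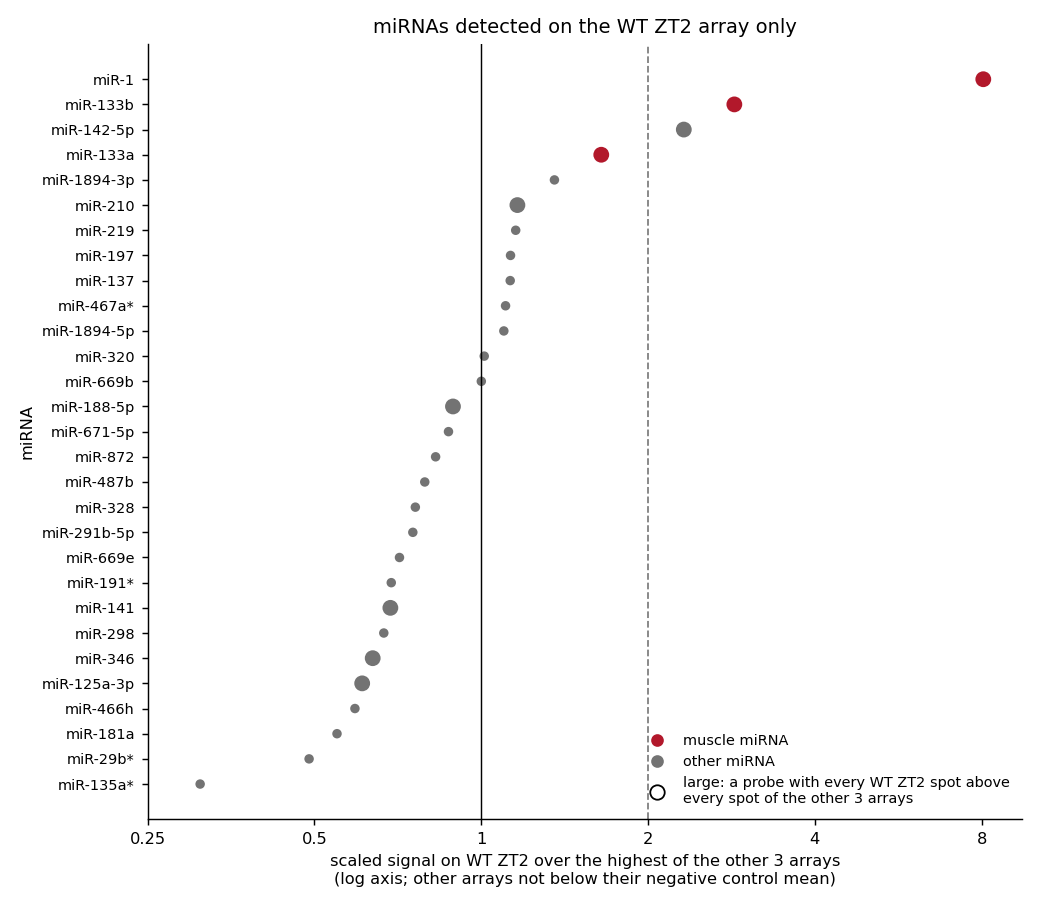
Scaled signal on WT ZT2 divided by the highest scaled signal of the other 3 arrays (horizontal log axis, no array below its negative control mean) for the 29 miRNAs detected on WT ZT2 and on no other array; large points have a probe with every WT ZT2 spot above every other spot. miR-1 lies at 8.05, miR-133b at 2.86, miR-142-5p at 2.32 and miR-133a at 1.65, and the median of the 26 others is 0.809. A point below 1 can come from the floor.

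The 5 miRNAs outside the muscle group with the profile over the 4 arrays nearest to miR-1 were miR-802 at a root mean square distance of 0.96 on the log2 scale, miR-142-5p at 1.08, miR-301a at 1.18, miR-210 at 1.21 and miR-137 at 1.23. Signals were set to the negative control mean where they lay below it, and miR-1 was at that floor on all arrays but WT ZT2. So were miR-133a, miR-133b, miR-210 and miR-137, whose distances to miR-1 therefore depend on the WT ZT2 signals alone. Those of miR-133a and miR-133b are not given, and those of miR-210 and miR-137 say nothing about the other arrays. miR-206, miR-208a, miR-208b and miR-499 were at the floor on all 4 arrays. A distance over 4 arrays is only a description of these pools.

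Lists of miRNAs of other cell types were set beside these results, because a piece of liver can hold vessel wall, blood, bile duct or neighbouring tissue. Of 2 smooth muscle miRNAs, miR-143 was detected on all arrays and miR-145 on none. The scaled signal of miR-143 was 0.222 on WT ZT2 and 0.146 to 0.167 on the others. Of 5 leukocyte miRNAs, 3 were detected on WT ZT2 and 2 on each other array, miR-142-5p being the one added, and their summed scaled signal was 1.20 on WT ZT2 against 0.611 to 0.752. miR-150 and miR-155 were undetected on every array. Of 7 epithelial and bile duct miRNAs, 5 were detected on WT ZT2 and 3 or 4 on the others, with sums of 0.389 against 0.243 to 0.284, and miR-200c and miR-205 were undetected throughout. Of 5 brain miRNAs, 1 (miR-137) was detected on WT ZT2 and 0 on the others, and the hypoxia miRNA miR-210 was likewise detected on WT ZT2 alone. The 3 leukocyte and 5 epithelial miRNAs detected on WT ZT2 each had their highest scaled signal there. The smooth muscle, brain and hypoxia entries rest on 1 detected miRNA each.

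The summed signal of the remaining lists was not highest on WT ZT2. The hepatocyte miRNAs (4 of 4) and endothelial miRNAs (2 of 2) were detected on every array. Of 3 red blood cell miRNAs, 2 were detected on WT ZT2 and all 3 on *Clock* mutant ZT2, where the sum was 5.94 against 2.55 to 3.32 elsewhere. None of 4 pancreatic miRNAs was detected on any array. Of 11 miRNAs that act in myogenesis but are expressed in many tissues, 8, 8, 6 and 7 were detected on the 4 arrays, with sums of 4.92 to 5.27. In a mixed tissue, more muscle cells and more of these miRNAs per cell cannot be told apart, and the part of other tissue in the muscle signal of WT ZT2 was not tested.

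**Figure D4:**
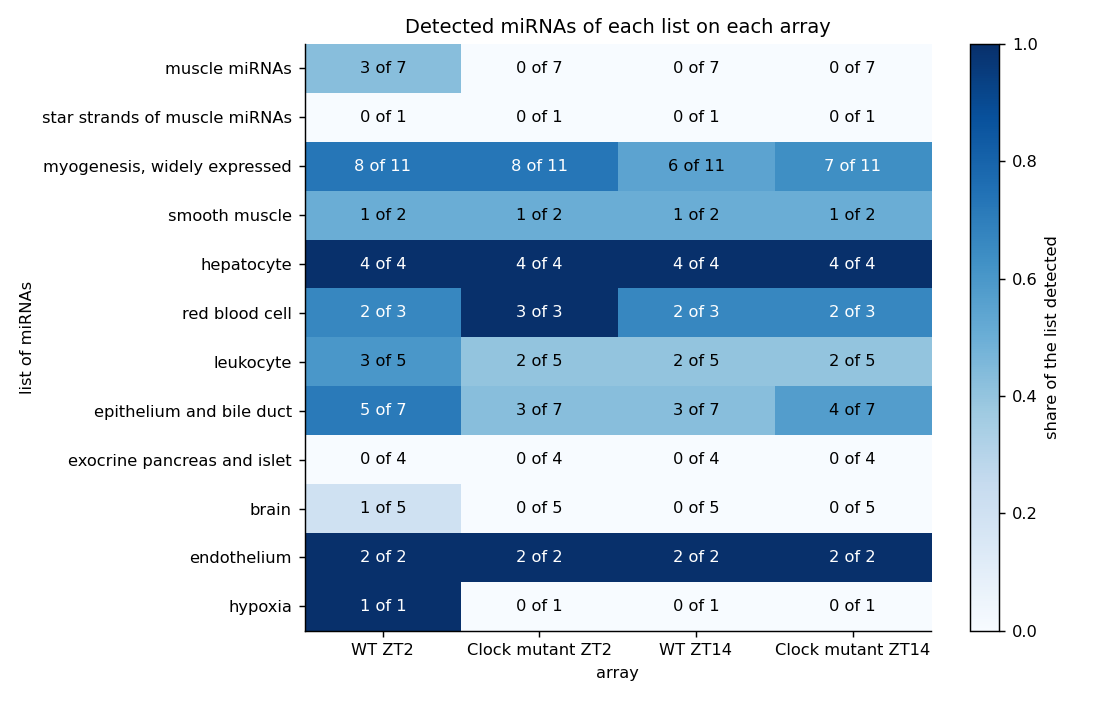
Number of miRNAs of each list (vertical axis) called detected on each array (horizontal axis); the shade gives the share of the list, from 0 (white) to 1 (dark). The muscle miRNAs have 3 of 7 on WT ZT2 and 0 of 7 on the other arrays, while the hepatocyte and endothelial lists are complete on all 4.

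The scanner software also wrote a total signal per miRNA, and for miR-133a and miR-133b this total was not their own. On WT ZT2 the total was 1428 units for miR-133a and 1471 for miR-133b, while their detected probes gave 25.9 and 43.5 units. The remainder for miR-133a equalled the total of miR-130a, the detected miRNA before it by name, and the remainder for miR-133b equalled the total of miR-133a. The totals were thus 55.1 and 33.8 times the signal of the miRNAs' own probes. The total of miR-1, both of whose probes were detected, was 143.6 units and equalled the sum of its probes.

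Over the arrays the same was seen for 46, 43, 28 and 40 detected miRNAs, each of them with an undetected probe. In all of these the remainder equalled the total of the detected miRNA before it, within a fraction of 0.001 of the miRNA's own written total. A remainder was seen for 0 miRNAs whose probes were all detected. Ratios from these totals would place miR-133a at -8.06 and miR-133b at -8.10 on the log2 scale in the mutant at ZT2, against -3.07 and -3.87 from the spots.

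**Figure D5:**
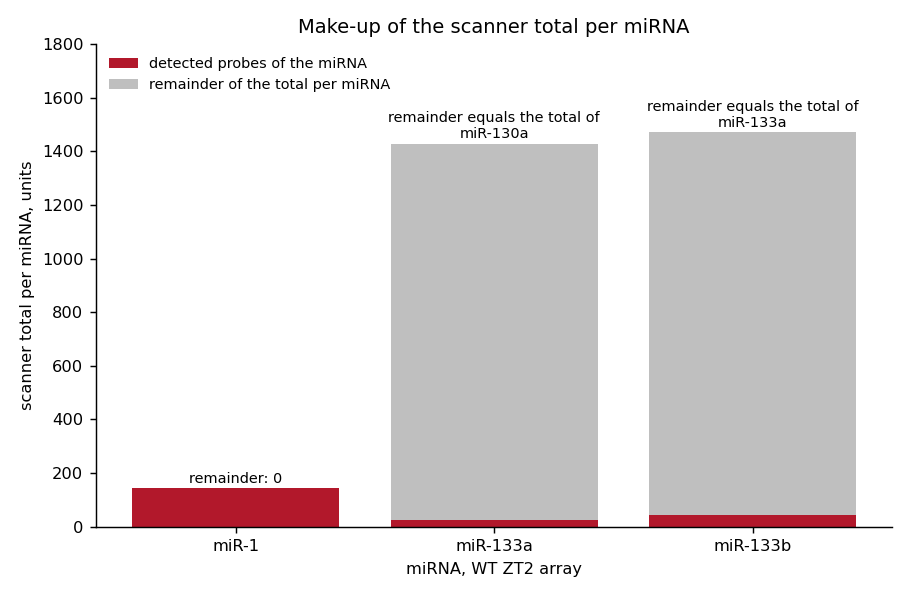
Total signal per miRNA written by the scanner software on WT ZT2 (vertical axis, units) for the 3 detected members, split into the signal of the miRNA's own detected probes (red) and the remainder (grey). The totals of 1428 and 1471 units for miR-133a and miR-133b hold 25.9 and 43.5 units of their own, and that of miR-1 has no remainder.

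The log2 table that the authors deposited used the detected probes of each miRNA, so it did not carry this remainder. In it an undetected miRNA has 1 value per array, -7.51 on WT ZT2, -6.59 on *Clock* mutant ZT2 and 0 on both ZT14 arrays. Read as it stands, the table puts miR-1 at -9.57, miR-133b at -7.85 and miR-133a at -7.10 in the mutant at ZT2. These differences contain the fill value of the mutant array. The 4 members that were undetected everywhere differ by 0.92 between mutant and WT at ZT2 in the same table and by 7.51 between ZT14 and ZT2 in WT, with no detected signal on either array.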

How the data were processed

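Per the file headers, the authors deposited Agilent Feature Extraction 10.7.1.1 output of 4 one-colour (Cy3) arrays, with background-subtracted linear intensity per spot, flags and detection calls, and a table of log2 values per miRNA whose normalization the methods do not state. The sources name the Agi4x44PreProcess package. Here the processed intensity was averaged over unflagged spots of a probe, then over probes, and scaled to the 75th percentile, within each array, of 123 mouse miRNAs that every array detected. Detection was the software's call. Where 1 of 2 arrays detected a miRNA, the ratio was a bound. Ratios of 2 arrays had no test and a threshold of 2-fold. Genotype and time were fitted additively with limma 3.58.1 in R 4.3.3 with Benjamini-Hochberg adjustment, after a test on simulated data. Other steps used Python 3.11.15, numpy 2.4.6, pandas 2.3.3 and matplotlib 3.10.9. All 7 members, their star strands and the 5 nearest profiles were to be named. Other miRNAs were named where a list or a count turned on them. Members and lists were chosen with earlier results of these data known. Alternatives were other scalings, background corrections, detection rules, floors, thresholds, the scanner totals, the authors' table and each array left out.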

Additional observations from a re-analysis of the deposited data

How the results depend on the processing

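The 3 of 7 members detected on WT ZT2 and the 0 of 7 on the other arrays were also found with detection from spots well above background; over unflagged spots, a rule chosen after seeing the data, the count on WT ZT2 was 2. For the mutant at ZT2, 3 of 7 members were at least 2-fold lower; this count was 1 with the normexp correction, whose offset of 50 units is added to every signal, and 1 with detection from spots well above background. For ZT14 against ZT2 in WT the count of 3 was 0 with normexp, 0 from the authors' table with bounds for undetected miRNAs, 1 with detection from spots well above background, and 1 with undetected signals set to 2 SD over the negative control mean. Read as it stands, the authors' table made 4 members higher at ZT14 in WT and 7 higher in the mutant, by its fill values. The size of the miR-1 bound at ZT2 ranged from 1.22 to 4.74 on the log2 scale over 16 alternatives, the authors' table as it stands (miR-1 -9.57, miR-133b -7.85 and miR-133a -7.10) left aside, that of miR-133b from 0.53 to 8.10, and that of miR-133a from 0.30 to 8.06 with 1 alternative giving none. For ZT14 against ZT2 in WT the sizes were 0.74 to 5.30 for miR-1 with 1 alternative giving none, 0.03 to 6.55 for miR-133b with 1 giving none, and 0.10 to 6.51 for miR-133a with 4 giving none. A bound could not change direction, because a miRNA detected on WT ZT2 alone was given either a lower value on the other array or no bound. The authors' table as it stands, the sum of detected probes, and each probe alone were chosen after seeing the data. With all 611 miRNAs floored, limma called 20 for genotype and 453 for time. The 20 included miR-1, miR-133a and miR-133b as lower in the mutant, and the 453 included miR-1 as lower at ZT14. These members were above the floor on WT ZT2 alone, so their calls are no separate result. In the same fit the 4 members undetected everywhere were called higher at ZT14 by 1.03 on the log2 scale, which is the difference of the floors. Without scaling it called 5 for time. With each array left out in turn, and genotype or time as the sole term, 1 arm held 1 array that was assumed to vary like the others, and limma called 0 to 7 miRNAs for genotype, 7 being without *Clock* mutant ZT2, and 0 to 13 for time, 13 being without WT ZT14 and 1 without *Clock* mutant ZT14. With the sole term and all 4 arrays it called 0 for either. No member was in the fits of miRNAs detected on all arrays. No paired analysis was possible because there was a single array per condition.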
